A study of Mus musculus with 6 samples.

Results

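The genes described here encode the machinery by which one cell recognises and takes up another that has died, a process called efferocytosis. The 10 genes were taken by their symbols: the ligands Gas6 and Pros1, the TAM receptors Axl, Mertk and Tyro3 that bind them, the bridging protein Mfge8, and the uptake receptors Trem2, Timd4, Stab1 and Cd36. All 10 were found among the 18194 genes named by a single symbol on the array, under 16 probe sets. Of the 10 genes, 8 were measurable and tested, among 10302 genes tested in all. A gene with several probe sets is represented by the brightest, judged by the mean of all 6 arrays.

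Dying cells expose phosphatidylserine on their surface. GAS6 and protein S (the product of Pros1) bind this lipid through a vitamin K-dependent, gamma-carboxylated domain and at the same time activate the receptor tyrosine kinases TYRO3, AXL and MERTK, whose initials give the TAM family its name. Macrophages and some dendritic cells use these receptors to clear dead cells and to dampen inflammatory signalling. MFG-E8 bridges phosphatidylserine to integrins, TIM-4 and stabilin-1 bind the lipid directly, TREM2 and CD36 recognise lipids and lipoproteins, and all act in phagocytes.

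Expression was measured on 6 Affymetrix arrays. The Gata3-/- group (3 arrays) came from mouse embryonic stem cells with no intact copy of Gata3, and the Gata3+/- group (3 arrays) from stem cells with a single intact copy; no wild-type group was analysed here. Both groups were differentiated in the same way, on OP9 stroma and on OP9-DL1 stroma that presents a Notch ligand, with IL-7 and Flt3L, and were then sorted as T-cell progenitors. Which surface markers defined the sort, which part of the gene was disrupted and how many stem cell clones were used is not stated in the labels. The titles call the replicates biological without saying whether they were separate cultures, and each p-value therefore speaks of array-to-array spread, which may be technical.

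The labelled cell type was checked against markers. Of 9 T-lineage markers on the array, 8 stayed under the minimum of 4 on the log2 scale on all 6 arrays, among them Cd3e, Cd3g, Cd3d, Bcl11b and Ptcra. Only Cd28 was tested, through the Gata3+/- arrays alone. It stood at 3.02, 2.65 and 3.01 in Gata3-/- arrays, all under the minimum, and at 4.80, 6.15 and 4.70 in Gata3+/- arrays. Of 12 macrophage markers on the array 11 were tested and 1, Cd163, stayed under the minimum throughout. The probe set for Gata3 averaged 5.93 ± 0.48 in Gata3-/- arrays and 5.88 ± 0.50 in Gata3+/- arrays (log2 intensity, SD, n = 3 each; difference 0.05, 95% interval -0.80 to 0.89). Because the disrupted part of the gene is unknown, that probe set does not check the genotypes, and they are used as labelled.

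Of the 8 tested genes 3 passed the threshold of an adjusted p of 0.05 (limma, Benjamini-Hochberg over all 20102 probe sets tested), and all 3 were lower in Gata3-/- arrays: Gas6, Pros1 and Axl. Over all genes tested 5.27% were called, 2.41% lower and 2.86% higher in Gata3-/- arrays. Trem2 had the largest difference of the 8 genes and missed the threshold by a narrow margin (adjusted p = 0.0508). Mertk, Mfge8, Stab1 and Cd36 did not pass, and Tyro3 and Timd4 were under the minimum on all arrays. In 4 of the 8 genes (Gas6, Pros1, Axl and Trem2) the genotypes did not overlap on any array, which was the case for 33.6% of all genes tested. The median difference of the 8 genes was -0.66, against -0.02 over all genes tested, all differences being Gata3-/- minus Gata3+/- on the log2 scale.

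**Figure D1:**
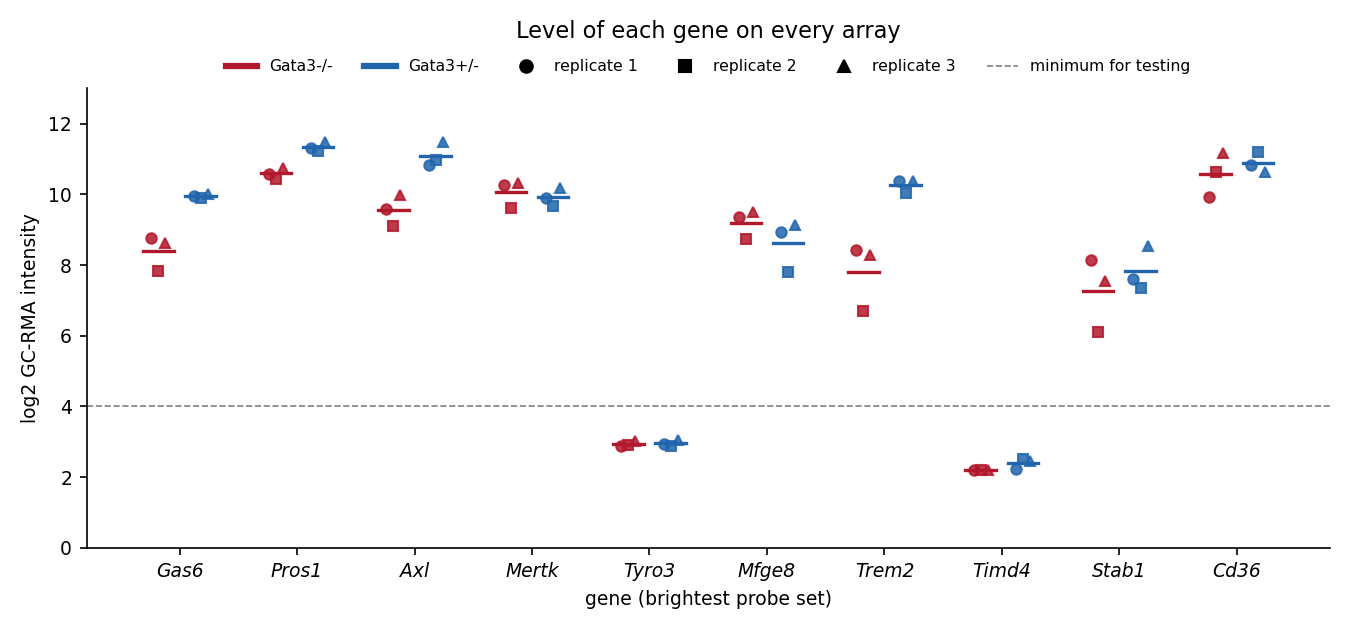
The log2 GC-RMA intensity (vertical axis) of the 10 genes is shown for every array, with Gata3-/- arrays in red on the left of each gene and Gata3+/- arrays in blue on the right; symbols mark the replicate number, horizontal bars the mean of 3 arrays and the dashed line the minimum of 4. Red and blue symbols are apart for Gas6, Pros1, Axl and Trem2, while Tyro3 and Timd4 lie under the dashed line.

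The promoter sequences of the 4 genes whose genotypes did not overlap, and of Mertk for contrast within the receptor family, are shown because Gas6, Pros1, Axl and Trem2 were lower together. They are the 250 bases before the annotated start of each gene, from RefSeq with build GRCm38.p6, on the strand of the gene. The intervals are chr8:13494536-13494785 (minus strand) for Gas6, chr16:62854057-62854306 (plus) for Pros1, chr7:25788734-25788983 (minus) for Axl, chr17:48346151-48346400 (plus) for Trem2 and chr2:128698665-128698914 (plus) for Mertk. Capitals mark GATA words (the word AGATAA, the word AGATAG, the word TGATAA and the word TGATAG) and GC boxes (GGGCGG), read on both strands.
Gas6: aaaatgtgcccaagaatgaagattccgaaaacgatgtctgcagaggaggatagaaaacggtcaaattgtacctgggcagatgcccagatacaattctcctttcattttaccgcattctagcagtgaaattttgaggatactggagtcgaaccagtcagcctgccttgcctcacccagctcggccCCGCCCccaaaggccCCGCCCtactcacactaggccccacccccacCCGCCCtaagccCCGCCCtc
Pros1: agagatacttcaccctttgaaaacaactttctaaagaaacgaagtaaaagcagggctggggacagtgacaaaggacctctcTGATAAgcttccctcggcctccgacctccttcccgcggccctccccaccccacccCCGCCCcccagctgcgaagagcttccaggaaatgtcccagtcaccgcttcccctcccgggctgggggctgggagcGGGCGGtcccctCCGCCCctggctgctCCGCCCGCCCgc
Axl: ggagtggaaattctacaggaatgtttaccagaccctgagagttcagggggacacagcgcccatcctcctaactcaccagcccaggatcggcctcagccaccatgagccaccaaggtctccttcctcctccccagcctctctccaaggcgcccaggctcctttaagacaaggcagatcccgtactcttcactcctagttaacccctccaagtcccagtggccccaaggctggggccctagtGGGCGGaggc
Trem2: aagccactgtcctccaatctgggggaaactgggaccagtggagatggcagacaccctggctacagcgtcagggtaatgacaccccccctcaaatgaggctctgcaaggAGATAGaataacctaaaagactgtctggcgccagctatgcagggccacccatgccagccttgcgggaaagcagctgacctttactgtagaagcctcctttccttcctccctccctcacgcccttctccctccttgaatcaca
Mertk: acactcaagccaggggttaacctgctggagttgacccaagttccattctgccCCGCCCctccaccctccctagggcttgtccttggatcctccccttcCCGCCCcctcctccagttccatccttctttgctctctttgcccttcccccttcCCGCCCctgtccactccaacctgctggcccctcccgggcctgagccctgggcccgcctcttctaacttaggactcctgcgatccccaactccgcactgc

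A GATA word stood in the window of Pros1 (TGATAA, 169 bases before the start) and of Trem2 (AGATAG, 142 bases before the start), and the letters were not found in the windows of Gas6, Axl and Mertk. That made 2 of the 10 genes, against 26.5% of 32851 promoter windows of the same length. GC boxes stood in 7 of the 10 windows, against 32.7% of all windows. The word is made of G and C alone, and the median GC content of all windows was 52.4%. Timd4 (50%) and Cd36 (43.2%) lay below that median and the other windows of the 10 genes above it, up to 73.2% for Tyro3. The part of GC content in the count of boxes was not tested. Gas6 had 4 GC boxes, Pros1 had 5, of which the last pair overlap each other, Mertk had 3 and Axl had 1 close to the start, while Trem2 had none. GATA words and GC boxes did not overlap. The AP-1 words TGAGTCA and TGACTCA, the PU.1 word GAGGAAGT and the TATA word TATAAA were in none of the 10 windows, against 4.46%, 2.44% and 12.4% of all windows. The MAF word TGCTGAC was in 1 of the 10, that of Timd4, against 3.81%. These matches describe letters in the sequence and do not show binding.

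Both TAM ligands were lower in Gata3-/- arrays. Gas6, the ligand that binds all 3 TAM receptors, stood at 8.77, 7.84 and 8.62 in Gata3-/- arrays 1 to 3, and at 9.94, 9.90 and 9.997 in Gata3+/- arrays (log2 intensity). Every Gata3-/- array lay below every Gata3+/- array, and the Gata3+/- arrays were close together (SD 0.05) where the Gata3-/- arrays spread more widely (SD 0.50). The gene fell by 1.54 on the log2 scale (SE 0.25, 95% interval -2.15 to -0.92, adjusted p = 0.0383 with limma), which is 2.90-fold lower. Its second probe set read 1.90 in both genotypes, under the minimum, so the difference rests on a single probe set.

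Pros1 encodes protein S, an anticoagulant cofactor that also activates MERTK and TYRO3. It stood at 10.58, 10.44 and 10.75 in Gata3-/- arrays, and at 11.32, 11.23 and 11.48 in Gata3+/- arrays. The genotypes did not overlap, and the spread within each was small. It fell by 0.75 (SE 0.11, 95% interval -1.04 to -0.47, adjusted p = 0.0364 with limma), which is 1.69-fold lower. The change of Gas6 was larger than that of Pros1 by -0.78 on the log2 scale (95% interval -1.43 to -0.13). Without both arrays numbered 2 that figure was -0.54 (SE 0.17, 95% interval -1.25 to 0.18), against an SE of 0.23 with all arrays. The interval without those arrays includes 0 and comes from fewer degrees of freedom. In both sets of arrays the genotypes were apart in the log2 ratio of the Gas6 to the Pros1 signal. The two-sided exact permutation p was 0.1 with all arrays and 0.333 without those numbered 2, the smallest possible in each set.

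The receptors differed among themselves. Axl, the receptor that responds mainly to GAS6 and is induced in inflamed macrophages and dendritic cells, stood at 9.60, 9.09 and 9.99 in Gata3-/- arrays, and at 10.84, 10.96 and 11.47 in Gata3+/- arrays. The highest Gata3-/- array lay below the lowest Gata3+/- array. Axl fell by 1.53 (SE 0.28, 95% interval -2.22 to -0.85, adjusted p = 0.0460 with limma), which is 2.89-fold lower. Its second probe set, of a kind that Affymetrix marks as open to cross-hybridisation, read 2.41 in both genotypes and was not tested.

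Mertk, the main TAM receptor of resting tissue macrophages, stood at 10.25, 9.63 and 10.33 in Gata3-/- arrays, and at 9.89, 9.68 and 10.17 in Gata3+/- arrays. The genotypes overlapped, with replicate 2 the lowest in each. Its difference was 0.16 (SE 0.23, 95% interval -0.41 to 0.73, adjusted p = 0.737 with limma), so a fall of the size seen in Axl lay outside the interval, while a smaller change in either direction lay within it. Tyro3, the receptor best known from neurons, averaged 2.94 ± 0.08 in Gata3-/- arrays and 2.96 ± 0.09 in Gata3+/- arrays (SD, n = 3 each), and its other probe set 2.45 ± 0.02 and 2.42 ± 0.19. Both were under the minimum on all 6 arrays, where an order of values carries no information.

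The change of Axl was set directly against that of Mertk on the same arrays, a comparison chosen after the values were seen, as 1 of 5 pairs computed. The log2 ratio of the Axl to the Mertk signal changed by -1.69 between the genotypes (95% interval -2.09 to -1.28, from the pooled spread of the ratio). No array of one genotype overlapped with the other (two-sided exact permutation p = 0.1, the smallest that 3 against 3 arrays allow, not adjusted over the 5 pairs). Against Mertk the change was -1.69 for Gas6 (interval -2.10 to -1.29), -0.91 for Pros1 (-1.37 to -0.45) and -2.62 for Trem2 (-3.57 to -1.67), each with the same exact permutation p of 0.1. Without both arrays numbered 2 the ratio of Axl to Mertk changed by -1.62 (95% interval -2.63 to -0.62). The two-sided exact permutation p was then 0.333, the smallest that 2 against 2 arrays allow.

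**Figure D2:**
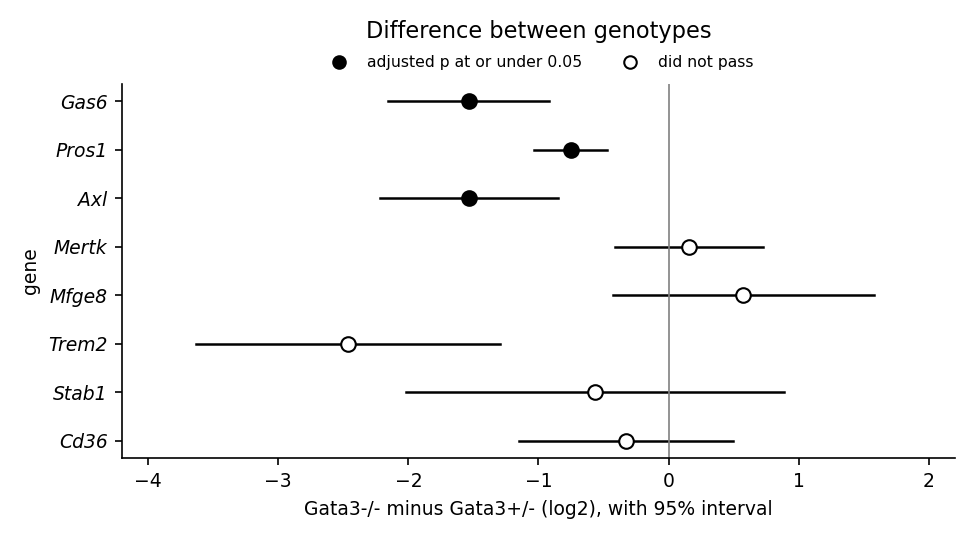
The difference between genotypes (Gata3-/- minus Gata3+/-, log2) is shown for the 8 tested genes as points with bars for the 95% interval from limma; filled points passed an adjusted p of 0.05. Gas6, Pros1 and Axl are filled and left of 0, Trem2 lies farthest left with the bar from -3.63 to -1.29 and did not pass after adjustment, and the bars of Mertk, Mfge8, Stab1 and Cd36 cross 0.

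Among the uptake receptors Trem2 stood apart. Trem2, a lipid receptor of macrophages, microglia and osteoclasts that signals through the adaptor TYROBP, stood at 8.42, 6.71 and 8.29 in Gata3-/- arrays, and at 10.38, 10.05 and 10.38 in Gata3+/- arrays. The genotypes did not overlap, and Gata3-/- replicate 2 was the lowest of the 6. The difference was -2.46 (SE 0.47, 95% interval -3.63 to -1.29, unadjusted p = 0.00228, adjusted p = 0.0508 with limma), a fitted 5.51-fold. It was the largest difference of the 8 genes and did not pass; the SD was 0.95 in Gata3-/- arrays and 0.19 in Gata3+/- arrays. Without both arrays numbered 2 the difference was -2.02 (adjusted p = 0.0531 with limma). The probe set that gave these values is of a kind whose probes can be shared with transcripts of another gene, and the other Trem2 probe set read 2.89 ± 0.02 in Gata3-/- arrays and 2.91 ± 0.04 in Gata3+/- arrays, under the minimum.

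Mfge8, the bridge to integrins, stood at 9.36, 8.72 and 9.51 in Gata3-/- arrays, and at 8.93, 7.80 and 9.13 in Gata3+/- arrays. Replicate 2 was the lowest of each genotype, and the genotypes overlapped. The difference was 0.58 (SE 0.40, 95% interval -0.43 to 1.58, adjusted p = 0.458 with limma). Stab1, the scavenger receptor stabilin-1 of sinusoidal endothelium and some macrophages, stood at 8.14, 6.11 and 7.55 in Gata3-/- arrays, and at 7.62, 7.35 and 8.53 in Gata3+/- arrays. Its genotypes overlapped, with a difference of -0.57 (SE 0.59, 95% interval -2.02 to 0.89, adjusted p = 0.623 with limma), and without Gata3-/- replicate 2 the difference was 0.01.

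Cd36, the scavenger receptor for oxidised lipids and long-chain fatty acids, stood at 9.93, 10.62 and 11.16 in Gata3-/- arrays, and at 10.84, 11.20 and 10.64 in Gata3+/- arrays. Here the Gata3-/- arrays surrounded part of the Gata3+/- range, and replicate 2 was the highest of the Gata3+/- arrays, unlike in Mertk, Mfge8 and Stab1. The difference was -0.32 (SE 0.33, 95% interval -1.15 to 0.50, adjusted p = 0.618 with limma). A second tested probe set of Cd36 gave -0.43 (SE 0.29, adjusted p = 0.433 with limma), and the remaining probe set was under the minimum on all arrays. Timd4, the phosphatidylserine receptor of resident peritoneal macrophages, averaged 2.21 ± 0.01 in Gata3-/- arrays and 2.39 ± 0.15 in Gata3+/- arrays (SD, n = 3 each), under the minimum on all arrays, and no fold is given.

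The levels also varied between replicates of a genotype. Gata3-/- replicate 2 was the lowest Gata3-/- array for 7 of the 8 tested genes, all but Cd36, and Gata3+/- replicate 2 the lowest Gata3+/- array for 6 of 8, all but Axl and Cd36. Markers of OP9 stroma or fibroblasts, 17 tested of 19 on the array, were also low on these arrays. Their summed intensity was 10777, 5204 and 22594 in Gata3-/- arrays 1 to 3, against 22961, 6553 and 23236 in Gata3+/- arrays 1 to 3. The genotypes overlapped in this sum. Of the 17 markers 15 had a negative and 2 a positive difference (median -0.63). The part of the stromal markers in the falls of Gas6, Pros1 and Axl was not tested. Of the stromal markers Lum and Dcn stayed under the minimum on all arrays, and 0 of 17 passed with limma (1 at an unadjusted p under 0.05).

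Macrophage markers were lower in sum in Gata3-/- arrays, with 1 of 11 called. The summed intensity of the 11 tested markers was 72395, 67369 and 71897 in Gata3-/- arrays, against 80239, 80843 and 89321 in Gata3+/- arrays, without overlap. Of the 11, 10 had a negative difference (median -0.40). Fcgr1, the high-affinity IgG receptor, was the only one called (lower, by 0.70, SE 0.12, adjusted p = 0.0431 with limma). At an unadjusted p under 0.05 with limma stood 8 of the 11, Cd68 among them, against 25.8% of all genes tested. The largest falls were those of Mrc1 (-1.84), Ms4a7 (-1.23) and Cd14 (-0.90). Their genotypes did not overlap, and none of them passed (limma, adjusted p of 0.118, 0.128 and 0.0863). Lyz2, C5ar1 and Ctss overlapped between genotypes. Cd68, a lysosomal protein of macrophages, went the other way without overlap and did not pass (difference 0.53, SE 0.10, adjusted p = 0.0541 with limma). It lies on chromosome 11, whose 886 tested genes had a median difference of 0.33, against -0.04 for genes elsewhere. The part of the macrophage markers in the falls of Gas6, Pros1 and Axl was not tested. In a bulk sample fewer cells of a type and less RNA per cell cannot be told apart.

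Markers of other cells that can express these genes were measured too. Of 9 endothelial markers Cdh5, Emcn, Lyve1 and Stab2 stayed under the minimum on all arrays, and the summed intensity of the 5 tested was 1918 to 2486 in Gata3-/- arrays and 1579 to 2119 in Gata3+/- arrays. Of those 5, 2 had a positive and 3 a negative difference, and 3 had an unadjusted p under 0.05 with limma. Pecam1, on chromosome 11, was higher without overlap (difference 0.59, SE 0.17, adjusted p = 0.112 with limma). Tek was lower without overlap (-0.39, SE 0.13, adjusted p = 0.155 with limma), and Kdr and Tie1 overlapped. Flt1, a VEGF receptor and the only 1 called, stood at 2.73, 2.76 and 3.38 in Gata3-/- arrays, all under the minimum. In Gata3+/- arrays it stood at 5.26, 6.74 and 5.48. It was tested through the Gata3+/- arrays alone, so its direction was fixed by the filter and its call is not read as a result. The part of the endothelial markers in the falls of Gas6, Pros1 and Axl was not tested. For 6 megakaryocyte and platelet markers the summed intensity was 12744 to 23867 in Gata3-/- arrays and 18770 to 23765 in Gata3+/- arrays. All 6 had a negative difference (median -0.26), 0 passed with limma and 1 had an unadjusted p under 0.05. The 3 tested adipocyte markers (of 5, with Adipoq and Cidec under the minimum) gave 14753 to 24791 in Gata3-/- arrays and 21334 to 27418 in Gata3+/- arrays. The 7 tested dendritic cell markers (of 9, with Cd209a and Xcr1 under the minimum) gave 16340 to 19316 in Gata3-/- arrays and 19725 to 21719 in Gata3+/- arrays, without overlap. In this linear sum the brightest marker weighs most, Bst2 (log2 mean 13.35 in Gata3-/- arrays and 13.56 in Gata3+/- arrays). Of the 7 markers 3 had a positive and 4 a negative difference. Among those, Irf8 was lower and Zbtb46 was higher (limma, adjusted p of 0.0383 and 0.0485). Siglech stood at 3.76, 3.81 and 3.04 in Gata3-/- arrays, all under the minimum. Like Flt1, Siglech was tested through the Gata3+/- arrays alone, so its direction was fixed by the filter. Its call (lower, adjusted p = 0.0281 with limma) is not read as a result.

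**Figure D3:**
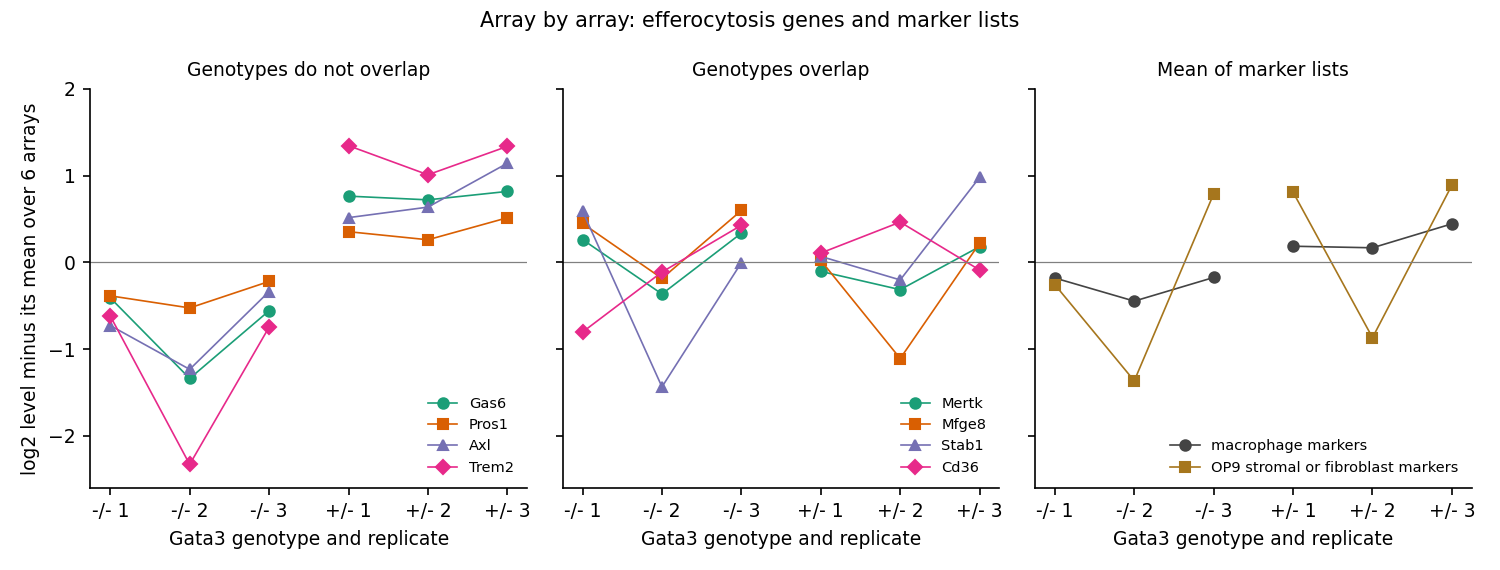
Each point is a log2 level minus its own mean over the 6 arrays, with Gata3-/- replicates left of Gata3+/- replicates; thin lines join points of the same gene or list and imply no order of replicates. The 4 genes of the left panel lie below 0 on all Gata3-/- arrays, those of the middle panel cross between genotypes, and in the right panel the mean of the macrophage markers is below 0 on all Gata3-/- arrays while that of the stromal markers is lowest on replicate 2 of both genotypes.

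Genes with the most similar pattern were listed by Pearson correlation of log2 levels over the 6 arrays, as a description without a test. The arrays of a group share their genotype, so genes that are lower in Gata3-/- arrays can score high with Gas6, Pros1, Axl and Trem2 for that alone: between 138 and 164 of the other genes tested had a correlation above 0.95 with Gas6, Pros1, Axl or Trem2. Nearest to Gas6 were Chsy1, Hsbp1 and Erp29 (0.993, 0.993 and 0.992). Pros1 was followed by Akap12, Siglecf and Tram1 (0.998, 0.998 and 0.997). Axl had Inppl1, Vps26a and Tm2d2 beside it (0.998, 0.995 and 0.995), and Trem2 had Cd99, Creb3l2 and Rab3il1 (0.997, 0.996 and 0.992). For the 4 genes whose genotypes overlapped, the nearest were Atp6v1a, Hspb11 and Plekhm2 for Mertk (0.996, 0.995 and 0.995), Nid1, Dhrs7 and Bmp1 for Mfge8 (0.997, 0.995 and 0.995), Zbtb45, Slc35e4 and Zfp384 for Stab1 (0.999, 0.998 and 0.992), and Pdcl, Map2k5 and Zfp994 for Cd36 (0.998, 0.978 and 0.967). Cd36 had 8 genes above 0.95, the fewest of the 8 genes.

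Beyond the 10 genes, 128 other genes of the pathway were grouped in 10 lists. Of the 122 on the array 109 were tested, and 7 passed, 3 higher and 4 lower in Gata3-/- arrays. That share of 6.42% stands beside 5.27% of all genes, and the median difference of the 109 was -0.05, against -0.02. At an unadjusted p under 0.05 stood 35 of the 109, and 25.8% of all genes tested (2663 of 10302), the share against which such counts in the lists are to be read.

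Among 17 tested engulfment and scavenger receptors 1 was higher, 1 was lower and 15 did not pass. Cd300lf, an inhibitory receptor that binds phosphatidylserine, stood at 11.90, 11.69 and 11.65 in Gata3-/- arrays and at 10.87, 10.40 and 10.82 in Gata3+/- arrays, higher by 1.05 (SE 0.15, adjusted p = 0.0353 with limma). Scarb1, the HDL receptor of the same family as CD36, stood at 10.94, 10.84 and 10.89 in Gata3-/- arrays and at 11.41, 11.54 and 11.46 in Gata3+/- arrays. It fell by 0.58 (SE 0.07, adjusted p = 0.0312 with limma), and both its other probe sets passed in the same direction. Of 18 genes of the engulfment machinery Dock2, a Rac activator of blood cells, was higher by 0.80 (SE 0.135, adjusted p = 0.0411 with limma) and 17 did not pass; its other probe sets were under the minimum. Cd300lf and Dock2 both lie on chromosome 11, whose 886 tested genes had a median difference of 0.33, against -0.04 for genes elsewhere.

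Of the enzymes that act on the TAM system 1 was called. Of 5 genes for receptor shedding Adam10, a protease that cleaves AXL and TREM2 from the cell surface, stood at 12.75, 12.66 and 12.74 in Gata3-/- arrays and at 13.08, 13.14 and 13.20 in Gata3+/- arrays. It fell by 0.42 (SE 0.07, adjusted p = 0.0425 with limma) and 4 did not pass; of its other tested probe sets, -0.59 on each, neither passed. None of 4 genes for gamma-carboxylation and processing of the ligands passed with limma (0 at an unadjusted p under 0.05). In that list Ggcx, the carboxylase, had a difference of -0.20 (adjusted p = 0.301) and Vkorc1, which recycles vitamin K, of -0.20 (adjusted p = 0.319).

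Of 5 tested genes of TAM feedback Ifnar2, a chain of the type I interferon receptor with which TAM receptors cooperate, stood at 11.78, 11.66 and 11.65 in Gata3-/- arrays and at 12.21, 12.30 and 12.17 in Gata3+/- arrays. It fell by 0.53 (SE 0.08, adjusted p = 0.0349 with limma) and 4 did not pass; its other tested probe sets gave -0.61 and -0.70 and did not pass. None of 7 genes of TREM2 signalling passed with limma (1 at an unadjusted p under 0.05). Tyrobp, the TREM2 adaptor, stood at 14.75, 14.59 and 14.65 in Gata3-/- arrays and at 14.71, 14.74 and 14.77 in Gata3+/- arrays, a difference of -0.08 (SE 0.07, adjusted p = 0.593), and was named here for that role after its values were seen. Hcst, the related adaptor DAP10, differed by -0.40 (adjusted p = 0.152) and the lipid phosphatase gene Inpp5d by -0.09 (adjusted p = 0.581).

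Among 14 genes of find-me and do-not-eat-me signals 1 was lower, 1 was higher and 12 did not pass. Cx3cr1, the fractalkine receptor that draws phagocytes to dying cells, stood at 13.23, 12.90 and 12.95 in Gata3-/- arrays and at 13.88, 13.89 and 13.79 in Gata3+/- arrays. It fell by 0.83 (SE 0.11, adjusted p = 0.0323 with limma), and its other probe set, at -1.09, did not pass. Cd24a, a surface protein that restrains uptake of the cells that carry it, stood at 11.87, 12.49 and 12.03 in Gata3-/- arrays and at 10.98, 10.46 and 11.06 in Gata3+/- arrays. It was higher by 1.30 (SE 0.23, adjusted p = 0.0445 with limma), and both its other probe sets passed.

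The 3 remaining lists, like those of gamma-carboxylation and TREM2 signalling, held 0 called genes with limma. Of 10 bridging and eat-me molecules 5 had an unadjusted p under 0.05, among them C1qc, a chain of complement C1q, with a difference of -0.61 (adjusted p = 0.0876), and Apoe, a lipoprotein ligand of TREM2, with -0.99 (adjusted p = 0.110). Edil3, another of the 5 and named for its direction after its values were seen, was higher by 1.64 (adjusted p = 0.141 with limma). In that list 3 genes had a positive and 7 a negative difference. Of 18 genes of phagosome maturation 5 had an unadjusted p under 0.05, close to the share over all genes, led by Becn1, an autophagy scaffold on chromosome 11, at 0.47 (adjusted p = 0.0714) and Rab7, a late endosome GTPase, at 0.55 (adjusted p = 0.0847). Of 11 genes of lipid sensing and cholesterol efflux 1 had an unadjusted p under 0.05, Nr1h3, which encodes the sterol receptor LXR alpha, with 0.92 (adjusted p = 0.0979), and the lipase gene Lpl had -0.44 (adjusted p = 0.233).

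**Figure D4:**
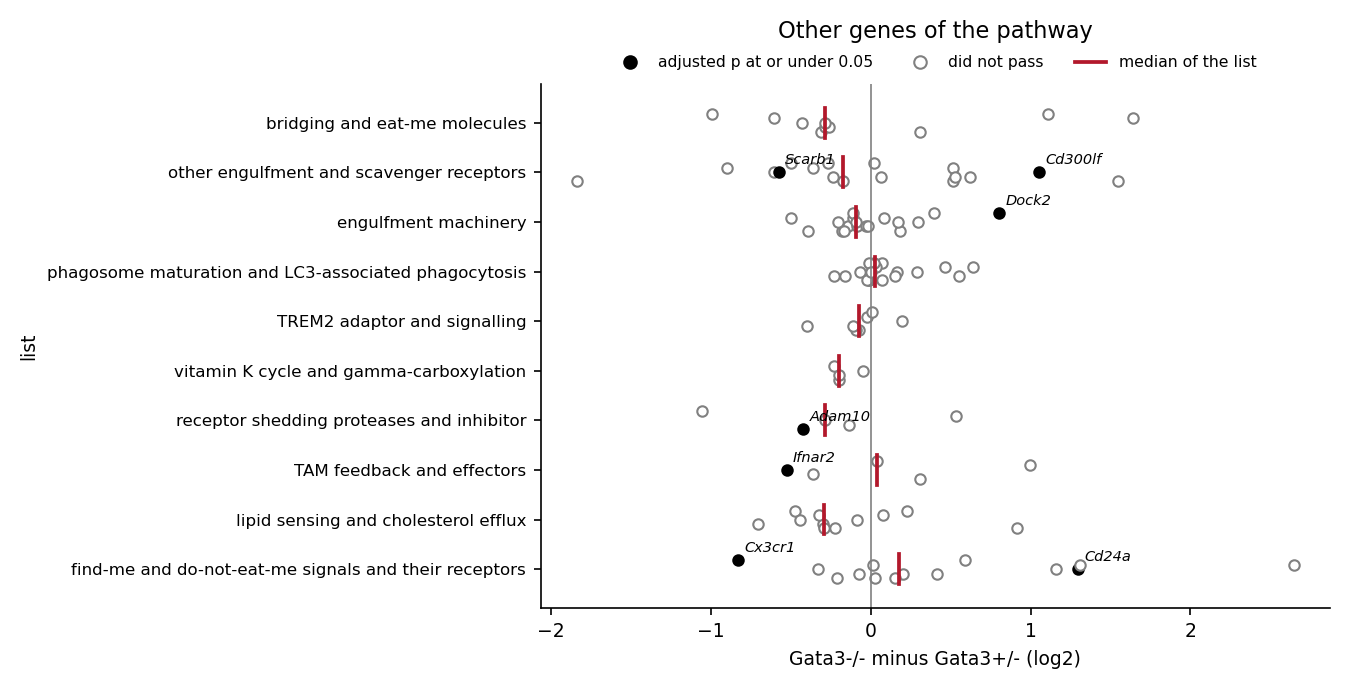
Each point is the difference between genotypes (Gata3-/- minus Gata3+/-, log2) of a tested gene in the 10 lists of other pathway genes; filled, named points passed an adjusted p of 0.05 and red bars mark the median of a list. The 7 filled points are spread over 5 lists, with 4 left and 3 right of 0.

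Leaving out any 1 of the 6 arrays removed the calls of Gas6, Pros1 and Axl, in fits where 0 to 4 of all genes tested were called. Over those 6 fits the difference of Gas6 ran from -1.72 to -1.25 (adjusted p from 0.0568 to 0.124), that of Pros1 from -0.83 to -0.68 (0.0784 to 0.115), that of Axl from -1.75 to -1.30 (0.0910 to 0.128) and that of Trem2 from -2.77 to -1.91 (0.0568 to 0.147), all with limma. The unadjusted p stayed at or under 0.00508, 0.00372, 0.00714 and 0.0103 in the same order.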

How the data were processed

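The values deposited by the authors are linear intensities of 45101 Affymetrix probe sets on 6 arrays, made with GC-RMA per the labels; the submitters' processing notes also name GCOS. For neither is a version or setting stated. Array medians lay between 8.57 and 8.93, and the number of arrays limits the precision.

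Here log2 was taken with no further normalization. Control probe sets (64) were left out, and a probe set was tested when it reached a log2 value of 4 on at least 3 of 6 arrays, which left 20102. Symbols came from the platform annotation; 34754 probe sets matched a RefSeq table (GRCm38.p6) and 0 symbols changed. Differences (Gata3-/- minus Gata3+/-) were fitted by limma (3.58.1, under R 4.3.3), two-sided, with Benjamini-Hochberg adjustment over all tested probe sets, and the fit was tested on simulated data. Probe sets of a gene other than the brightest are given beside it. Named genes are the 10 genes, the 3 genes most like each, and up to 4 called genes of each list (or the 2 with the smallest p); others are named as markers. Alternatives were other filters, normalizations, variance models, a 2-fold minimum, averaged probe sets, a replicate block and arrays left out. Genes and lists were chosen with earlier results of these data known.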

Additional observations from a re-analysis of the deposited data

How the results depend on the processing

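Of all genes 543 were called. The count was 159 with a 2-fold minimum, 98 with no filter, 824 with a variance trend and robust eBayes, 1224 with array weights, 298 with the replicate block, 3 without both arrays numbered 2 and 0 to 4 with each array left out. The 3 called efferocytosis genes became 2 with a 2-fold minimum, which Pros1 missed, and 2 with the replicate block, where Gas6 did not pass. They became 4 in the fits that also called Trem2, named below. Their count was 0 with no filter (4 at an unadjusted p under 0.05 with limma), 0 without both arrays numbered 2 (5) and 0 in each fit that left out an array (4 in each). The 7 called genes of the other lists became 2 with a 2-fold minimum, 1 with no filter, 18 with array weights, 0 without both arrays numbered 2 (30 at an unadjusted p under 0.05) and 0 in each fit that left out an array (27 to 33). Fits with fewer arrays have fewer degrees of freedom. Otherwise the cause was not tested.

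Gas6, Pros1, Axl and Trem2 stayed negative in all 16 alternatives, from -1.72 to -1.25, -0.83 to -0.68, -1.75 to -1.28 and -2.77 to -1.91. They were called in 7, 7, 8 and 6 of them. Trem2 was called with the stricter filter (adjusted p = 0.0407), quantile normalization (0.0475), median centring (0.0478), the variance trend (0.0375), array weights (0.0245) and averaged probe sets (0.0400), all with limma. Mertk, Mfge8, Stab1 and Cd36 were called in none of the 16 (adjusted p of 0.108 or more). With each array left out the difference of Stab1 ran from -1.002 to 0.0112, reversed without Gata3-/- replicate 2. With the replicate block Gas6 had an adjusted p of 0.0516, Pros1 and Axl 0.0431 each, and Trem2 0.0510. Deviations of same-numbered arrays correlated by 0.005, 0.695 and 0.429 across probe sets, and not every array correlated best with its own number, so the numbers were not taken as a pairing.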
